A study of Mus musculus with 4 samples.

Results

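Genomic imprinting silences 1 parental copy of a gene according to the parent it came from, and 6 imprinted genes are described here in mouse haematopoietic stem cells. The genes were Meg3, Igf2r, Sgce, Ndn, Gnas and Impact, and all 6 had values in each library, among 9244 genes with library values in a deposited table of 9796. The set was chosen by values measured in this same comparison: Meg3 for the call and fold change that the authors' deposited table gives it, and the others as imprinted genes whose library values were already known. Their differences between genotypes are therefore given as descriptions without a test.

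The study compared Sin3B KO with WT cells to find genes regulated by Sin3B, a scaffold protein of histone deacetylase complexes that repress transcription. There were 2 libraries of Sin3B KO cells and 2 of WT cells, all from C57BL/6 mice aged 8 to 12 weeks and sorted by the markers LSK CD34- FLk2-, which select long-term stem cells. The labels do not say how Sin3b was deleted, or whether libraries of a genotype came from separate animals, so that errors cover the spread between libraries, which may be technical. Values are normalised read counts, which are counts divided by a size factor for each library, and means are given with the SD (n = 2 throughout).

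Imprinted genes lie in clusters that carry a control region methylated on only the maternal or only the paternal chromosome, and long noncoding RNAs often act from these regions. Meg3 is a maternally expressed noncoding RNA of the Dlk1-Meg3 cluster, and work in mouse fetal liver has linked that cluster to restraint of PI3K and mTOR signalling in long-term stem cells. Igf2r and Gnas are maternally expressed in at least some mouse tissues, and Sgce, Ndn and Impact are paternally expressed. The total count of a gene does not say which parental copy was read.

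Sequences are shown for the promoter of Meg3, the gene with the largest difference of the 6, and for Igf2r and Ndn as a maternal and a paternal gene with smaller ones. They are RefSeq windows on GRCm38.p6 that run from 250 bases before to 50 bases after the annotated start. Windows were found for 4 of the 6 genes, with 8 windows in all, and those printed are on chr12:109540746-109541045 (plus strand), chr17:12769657-12769956 (minus strand) and chr7:62348027-62348326 (plus strand). Capitals mark TGACGTCA, the cyclic AMP response element, and TGCCGC, the hexamer bound by the imprint protector Zfp57, on either strand.
Meg3: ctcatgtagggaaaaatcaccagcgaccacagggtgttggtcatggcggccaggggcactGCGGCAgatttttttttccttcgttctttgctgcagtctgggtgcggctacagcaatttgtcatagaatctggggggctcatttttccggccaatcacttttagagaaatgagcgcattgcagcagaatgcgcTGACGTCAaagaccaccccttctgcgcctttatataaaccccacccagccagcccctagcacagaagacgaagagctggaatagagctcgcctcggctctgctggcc
Igf2r: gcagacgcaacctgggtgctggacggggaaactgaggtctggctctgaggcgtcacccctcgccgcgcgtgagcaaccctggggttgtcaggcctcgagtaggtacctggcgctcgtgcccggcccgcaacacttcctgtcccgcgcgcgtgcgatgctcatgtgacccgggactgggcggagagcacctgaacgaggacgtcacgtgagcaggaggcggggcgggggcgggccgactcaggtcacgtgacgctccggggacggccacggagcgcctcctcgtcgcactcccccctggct
Ndn: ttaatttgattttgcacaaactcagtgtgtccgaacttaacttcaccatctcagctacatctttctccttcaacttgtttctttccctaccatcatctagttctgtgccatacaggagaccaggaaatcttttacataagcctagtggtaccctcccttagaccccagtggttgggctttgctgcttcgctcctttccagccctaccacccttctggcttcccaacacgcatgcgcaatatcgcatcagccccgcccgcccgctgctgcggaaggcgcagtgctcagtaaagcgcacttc

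The printed Meg3 window held TGACGTCA at base -57 from the start and the reverse complement of TGCCGC at base -190. TGACGTCA was in 1.88% and TGCCGC in 11.6% of 27025 promoter windows of the same length. Neither motif was in the Igf2r, Ndn or Gnas windows, nor in the second annotated Meg3 window (chr12:109545148-109545447). The printed Meg3, Igf2r and Ndn windows held 13, 34 and 11 CpG dinucleotides and the second Meg3 window held 1, against a median of 7 over all windows. These matches describe letters, and no binding or methylation was measured.

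Sin3b itself had 755 and 647 normalised reads in the Sin3B KO libraries, against 1522 and 1825 in the WT libraries, so the labels and the gene go together although reads remained. With limma, 0 of 9244 genes (0%) passed a Benjamini-Hochberg adjusted p of 0.05, the smallest adjusted p being 0.548, and 824 genes (8.91%) were under an unadjusted p of 0.05, 4.97% higher and 3.95% lower in the KO. The authors' deposited table calls 31 genes of 9796 (0.316%) at an adjusted p under 0.05, with 0.112% called as lower. An exact permutation test of 2 libraries against 2 cannot go below a two-sided p of 0.333. All 15 stem cell markers examined had values, and their summed level was 86542 and 100807 in the KO and 94174 and 94008 in WT.

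Of the 6 genes, Meg3, Igf2r and Gnas had lower means in the KO than in WT, as did 46.6% of all genes, and Sgce, Ndn and Impact had higher ones. Both KO values were below both WT values in Meg3, Igf2r and Gnas, as in 19.4% of all genes, and above them in none of the 6, against 24.7% of all genes; these values helped to choose the set, so nothing is read from the counts.

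Meg3 (ENSMUSG00000021268, chromosome 12) had the largest difference of the 6. It had 112 and 84.7 normalised reads in Sin3B KO libraries 1 and 2, against 982 and 272 in WT libraries 1 and 2. Both KO values were below both WT values, and the WT values lay 3.61-fold from each other. The means were 98.6 ± 19.6 in the KO and 627 ± 502 in WT, a 6.36-fold lower mean, with a log2 fold change of -2.39 (SE 0.57) on log2(value + 1).

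The size of this difference depended on the library WT 1. That library was 9.96-fold and WT 2 was 2.76-fold above the KO mean, and without WT 1 the log2 fold change was -1.47. Without WT 2 it was -3.32. If a step of the values is taken as 1 read, Meg3 had 117 and 95 reads in the KO and 861 and 275 in WT. The median gene had 737 and 788 reads in the KO and 607 and 715 in WT, so Meg3 was above it in WT 1 and below it in the other libraries.

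By log2 fold change Meg3 was the second lowest of the 9244 genes (rank 2), after the platelet gene Ppbp. In the authors' deposited table it has a log2 fold change of -1.28, the lowest of all (rank 1), with an adjusted p of 0.003; that value chose the gene and is no further evidence. The table lists genes with a mean over libraries of at least 120.2, and the KO mean of Meg3 was below that level, so Meg3 is listed through its WT values.

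**Figure D1:**
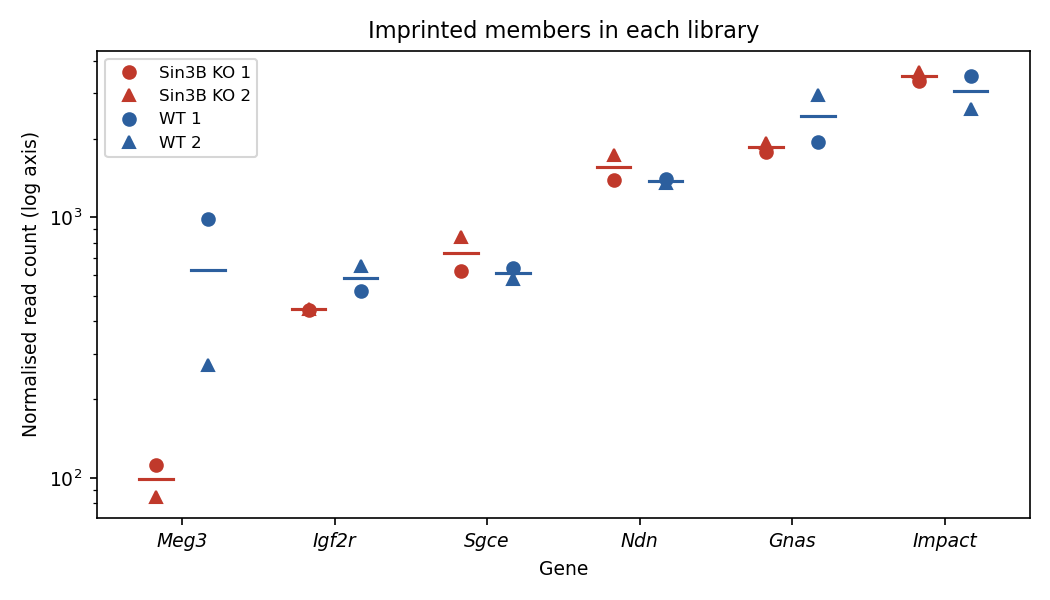
Normalised read counts (log axis) of the 6 imprinted genes in each library, with Sin3B KO in red to the left of WT in blue, circles for libraries 1, triangles for libraries 2 and bars for the mean of the 2 libraries. Meg3 lies at 112 and 84.7 in the KO and at 982 and 272 in WT, while the genotypes differ much less in the other 5 genes.

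Per kilobase of annotated exon, with all exons of all transcripts counted, Meg3 was the least abundant of the 6. This rests on an exon length of 18089 bases for Meg3, the longest of the 6. Without length, its WT mean of 627 normalised reads was above those of Sgce (609) and Igf2r (586). The level of Meg3 was 5.45 normalised reads per kilobase in the KO and 34.7 in WT, which lay at the 0.0556 and 7.56 percentile of the measured genes. Impact stood at the other end, with 679 in the KO and 595 in WT. Ndn followed with 422 and 373, Gnas with 166 and 219, Sgce with 68.9 and 57.4 and Igf2r with 47.6 and 63.0 in the KO and in WT. In WT the ranges of the libraries did not overlap between Impact, Ndn and Gnas. Sgce at 60.4 and 54.4 and Igf2r at 55.9 and 70.1 per kilobase in WT 1 and WT 2 did overlap. Meg3, at 54.3 and 15.0, overlapped neither, but its WT 1 value was almost level with Sgce in WT 2.

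Igf2r (ENSMUSG00000023830, chromosome 17) encodes the receptor that carries IGF2 and enzymes tagged with mannose 6-phosphate to lysosomes. It had 442 and 444 normalised reads in the Sin3B KO libraries, against 520 and 653 in the WT libraries. Both KO values were below both WT values, with means of 443 ± 1.41 and 586 ± 94.0 and a log2 fold change of -0.39 (SE 0.26), which was -0.23 without WT 2. In the mouse the gene is overlapped by the antisense RNA Airn, and reads of the pair cannot be told apart without strand, which is not given in the sources used here.

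Gnas (ENSMUSG00000027523, chromosome 2) encodes the Gs alpha subunit that links receptors to adenylyl cyclase, and its locus also makes other transcripts from promoters upstream. It had 1789 and 1936 normalised reads in the KO, against 1951 and 2948 in WT. The groups did not overlap, but KO library 2 and WT 1 were almost level. The means were 1862 ± 104 in the KO and 2450 ± 705 in WT, a log2 fold change of -0.37 (SE 0.24) that was -0.07 without WT 2. A value for the gene sums all its transcripts, imprinted or not.

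Among the paternally expressed genes, Sgce (ENSMUSG00000004631, chromosome 6) encodes epsilon-sarcoglycan, a membrane protein related to the dystrophin complex. Its values were 620 and 842 in the KO and 641 and 578 in WT, which overlap. The log2 fold change was 0.25 (SE 0.25) and 0.03 without Sin3B KO replicate 2.

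Ndn (ENSMUSG00000033585, chromosome 7) encodes necdin, a MAGE protein linked to quiescence of stem cells in the mouse. Ndn had 1387 and 1733 normalised reads in the KO and 1401 and 1356 in WT. The groups overlapped, with a log2 fold change of 0.17 (SE 0.21). The WT libraries were close to each other, and only KO library 2 lay above them.

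Impact (ENSMUSG00000024423, chromosome 18) encodes a protein that restrains activation of the kinase GCN2. Impact had 3347 and 3614 normalised reads in the KO and 3492 and 2606 in WT. The groups overlapped, with a log2 fold change of 0.21 (SE 0.21) that was -0.0059 without WT 2.

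Meg3 also differed from the other 5 genes in how far its WT libraries lay apart. The difference between WT 1 and WT 2 was 1.85 on the log2 scale, at the 98.5 percentile of all genes, while in the other 5 it lay between the 8.05 percentile for Ndn and the 77.9 percentile for Gnas. Between the KO libraries Meg3 differed by 0.40, at the 72.4 percentile. The summed levels of myeloid, B lineage and erythroid markers were also higher in libraries 1 than in libraries 2 of both genotypes, although single markers such as Csf3r went the other way. The summed level of 16 of 16 myeloid markers with values was 57321 and 26598 in the KO and 82507 and 16556 in WT, and that of 7 of 14 B lineage markers was 5041 and 2120 in the KO and 3959 and 1563 in WT. Of 16 erythroid markers 11 had values, summing to 21100 and 7218 in the KO and 10427 and 5554 in WT, with Slc4a1 at 0 in WT 2.

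Other marker sums differed less between libraries. Of 13 megakaryocyte and platelet markers 10 had values, summing to 16478 and 19427 in the KO and 20771 and 15735 in WT. Within that sum, Ppbp, a platelet chemokine gene, had 121 and 41.9 in the KO and 3854 and 89.0 in WT (log2 fold change -3.02, SE 1.40). Tubb1, a platelet tubulin gene, had 172 and 101 in the KO and 624 and 69.2 in WT. Both were highest in WT 1, as Meg3 was, but their groups overlapped. Of 12 macrophage and dendritic markers 5 had values, at 8194 and 6851 in the KO and 5999 and 6384 in WT, and of 14 T and NK markers 4 had, at 4442 and 3726 in the KO and 3613 and 3509 in WT, with Il7r at 0 in WT 2. Meg3 is also expressed by stromal cells. Of 20 stromal and endothelial markers 6 had values, and they summed to 4672 and 3657 in the KO and 4001 and 4204 in WT. The single markers went both ways between the WT libraries. Cxcl12, the niche chemokine, was at 1432 and 80.3 in the KO and 521 and 48.5 in WT. Lpl, Pdgfrb and Pecam1 were also higher in WT 1 than in WT 2. Emcn and Bgn were lower in WT 1, with Bgn at 1202 in WT 1 and 1975 in WT 2. The part of any of these cells in the Meg3 values was not tested. In bulk samples, fewer cells of a type and less RNA per cell cannot be told apart.

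The 5 genes whose profile over the 4 libraries was nearest to that of Meg3 were found by the Euclidean distance between log2 values centred on each gene's mean. They were Fscn1, an actin-bundling protein (distance 0.98), Mmp2, a matrix metalloproteinase (1.03), P2ry2, a nucleotide receptor (1.29), Ncam1, a cell adhesion molecule (1.30), and Pde5a, a cyclic GMP phosphodiesterase (1.33). Fscn1 had 110 and 66.9 normalised reads in the KO and 413 and 136 in WT, which is the same order of libraries as Meg3. Mmp2 had 65.4 and 56.2 in the KO and 288 and 199 in WT. In all 5 both KO values were below both WT values, as in 19.4% of all genes. The KO means of Fscn1 (88.2), Mmp2 (60.8) and Pde5a (60.7) were below the listing level of 120.2, so these are listed through their WT values. Those of P2ry2 (132) and Ncam1 (122) were above it. The 5 genes were selected for a shared profile over the same 4 libraries, so the likeness and the order of the groups are descriptions. The distance of Pde5a from Meg3 (1.33) was also used as a cut for the other 5 imprinted genes, whose profiles are nearly flat. Of the 9079 genes compared, 8509 to 8667 lay nearer than this cut to each of them. For Meg3 the count is 4, which the choice of the cut fixes. The distances use log2 values that were centred but not scaled, so they grow with the size of the differences between libraries. The contrast therefore restates the large Meg3 differences and is no further evidence.

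Long noncoding RNA genes, by GENCODE type, were a set chosen after the Meg3 values were seen. Of 54 such genes with values, 37 were lower and 17 higher in the KO, with a median log2 fold change of -0.19, against 0.03 over all genes. The 54 include 21 of the type processed transcript, some under symbols of protein-coding genes such as Cct6a and Ptpmt1, and Trmt61b is typed as antisense. Without those 21, 21 of 33 were lower and 12 higher, with a median of -0.13. Meg3 had the lowest log2 fold change of the 54. Higher values in WT 1 than in WT 2 were found for 36 of the 54, with a median difference of 0.24, against 4193 of all 9244 genes and a median of -0.05. Only Kcnq1ot1 and an antisense gene of predicted name had a larger difference than Meg3 in that direction. Kcnq1ot1, the paternally expressed antisense RNA of another imprinted cluster, had 3920 and 2682 normalised reads in the KO and 10551 and 2070 in WT. Xist, the RNA of the inactive X chromosome, had 1713 and 1873 in the KO and 4321 and 1221 in WT. For both, WT 1 was high while WT 2 lay below the KO libraries, unlike Meg3, where WT 2 stayed above them.

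**Figure D2:**
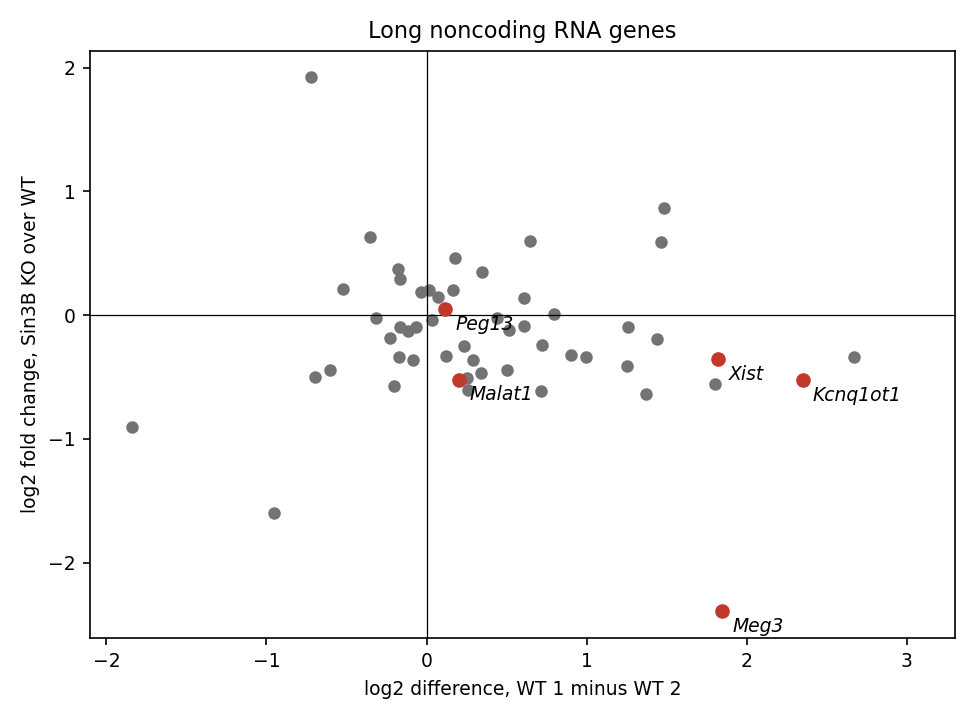
The log2 fold change of Sin3B KO over WT against the log2 difference of WT 1 minus WT 2, for 54 long noncoding RNA genes (points; named genes in red). Meg3 lies low at -2.39 and far to the right at 1.85, Kcnq1ot1 and Xist lie to the right with smaller fold changes, and Peg13 lies near 0 on both axes.

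Beyond the 6 genes, 32 other imprinted genes had values, out of 84 listed in all. Dlk1, Rtl1, Rian and Mirg, which neighbour Meg3, and Igf2, H19 and Peg3 were not analysed here. Of the 32, 18 had a higher and 14 a lower value in the KO, and the median log2 fold change was 0.08, against 0.03 over all 9244 genes. With limma 0 of the 32 passed the adjusted threshold, and 2 were under an unadjusted p of 0.05, against 8.91% of all genes. The groups did not overlap in 12 of the 32 (37.5%), against 44.1% of all genes. The authors' deposited table calls 0 of the 32 at an adjusted p under 0.05. Without Meg3 and the other 5 genes, the imprinted list thus gave shares near or below those of all genes. Whether each listed gene is imprinted in these cells was not measured.

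The lowest of these 32 was Osbpl5, an oxysterol-binding protein gene, at 158 and 157 normalised reads in the KO and 357 and 296 in WT. Its log2 fold change was -1.04 (SE 0.35; limma, Benjamini-Hochberg adjusted p = 0.548). The highest was Nap1l4, a histone chaperone gene, at 7349 and 8263 in the KO and 4990 and 5860 in WT (log2 fold change 0.53, SE 0.19; limma, Benjamini-Hochberg adjusted p = 0.548). Both belong to the Kcnq1 cluster on chromosome 7, so genes of that cluster lay at both ends of the list.

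Of 10 measured genes of the Kcnq1 cluster, 6 were above 0 and 4 below. Phlda2, which limits placental growth, had 111 and 155 normalised reads in the KO and 201 and 259 in WT. Cdkn1c, the CDK inhibitor p57 that holds stem cells in quiescence, had 280 and 395 in the KO and 280 and 285 in WT, so that only KO library 2 was higher. Cd81 and Tspan32 encode tetraspanins, and Cd81 had 9881 and 10649 in the KO and 8117 and 9758 in WT. Tspan32 had 8069 and 9466 in the KO and 6090 and 8809 in WT, which overlap. Slc22a18, a transporter, had a log2 fold change of 0.37, Tssc4 of 0.05 and Tnfrsf22, a decoy receptor, of -0.05.

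In the cluster of Ndn, Peg12 had 1224 and 1899 normalised reads in the KO and 829 and 1389 in WT. Ube3a, the ubiquitin ligase of Angelman syndrome, had 512 and 676 in the KO and 914 and 649 in WT, and Atp10a, a phospholipid flippase, 176 and 355 in the KO and 274 and 637 in WT. All 4 genes of that cluster had overlapping groups, with 2 above 0 and 2 below.

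In the cluster of Sgce, Ppp1r9a, a neuronal scaffold gene, had 1235 and 1352 normalised reads in the KO and 2121 and 1270 in WT. The paraoxonases Pon2 and Pon3 had log2 fold changes of -0.11 and -0.20. Beside Igf2r, the organic cation transporter Slc22a3 had a log2 fold change of 0.15. In the Peg13 cluster the noncoding RNA Peg13 had 2234 and 2388 in the KO and 2327 and 2147 in WT, and the genes around it, Trappc9, Chrac1 and Eif2c2, had log2 fold changes of 0.23, 0.22 and -0.43. Peg13 lies inside Trappc9, so their reads may be shared.

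The other imprinted genes lay between these. Grb10, an adaptor that damps insulin and IGF signalling, had 2267 and 2852 normalised reads in the KO and 3739 and 2404 in WT. Gatm had a log2 fold change of 0.33, Blcap of 0.33, Dhcr7 of 0.26, Copg2 of 0.25, Htr2a of 0.13 and Ampd3 of 0.10. H13 was at -0.46 and Gab1, a signalling adaptor, at -0.40. Zrsr1, a splicing factor gene inside Commd1, had 189 and 94.5 in the KO and 201 and 296 in WT, and Inpp5f, a phosphatase gene, 1279 and 1023 in the KO and 1006 and 631 in WT. Both had groups that did not overlap, in opposite directions.

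**Figure D3:**
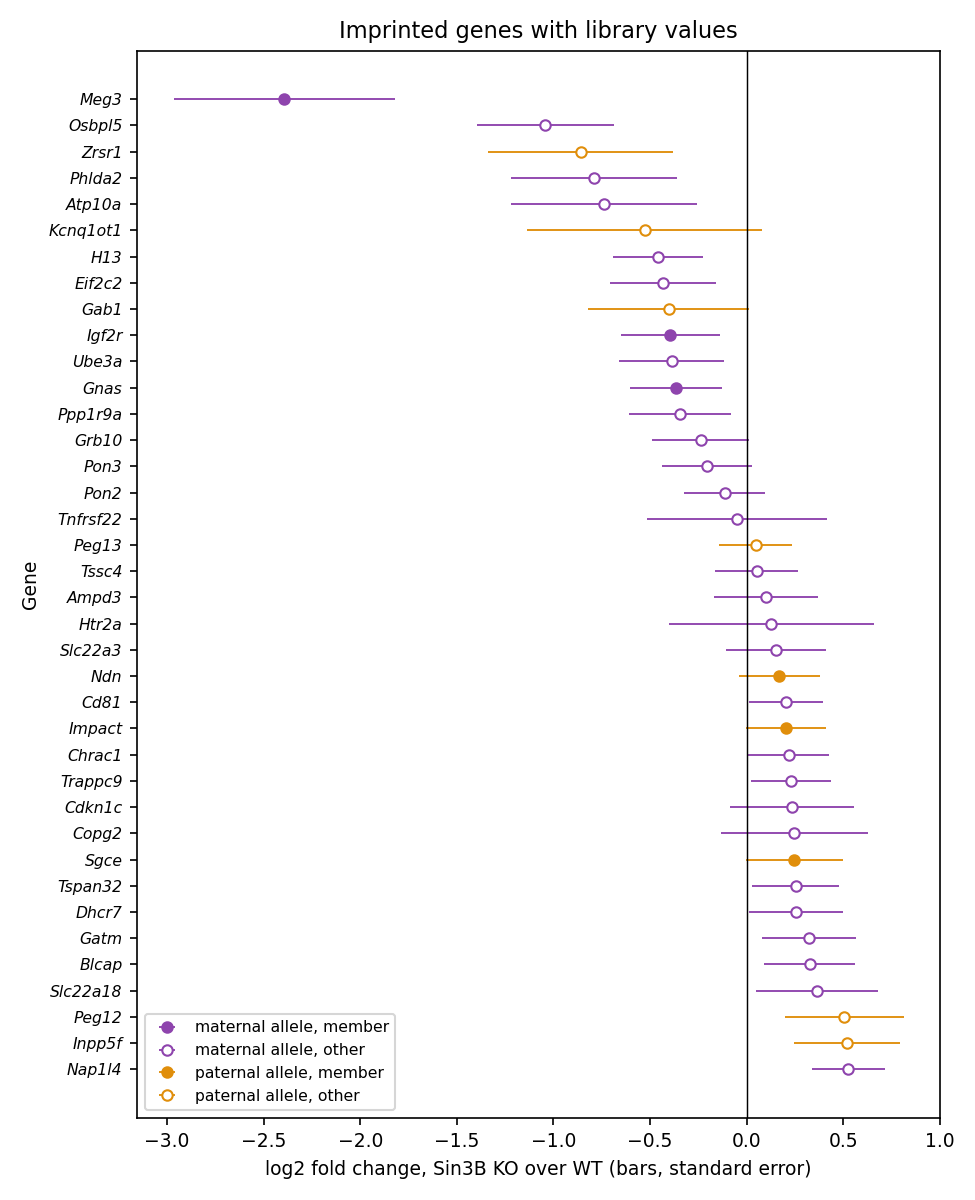
The log2 fold change of Sin3B KO over WT, with its standard error, for 38 imprinted genes with values, purple for genes listed as maternally and orange for genes listed as paternally expressed, filled for the 6 genes described first. Meg3 lies lowest at -2.39, Osbpl5 follows at -1.04, and the others lie between -0.86 and 0.53.

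Genes next to Meg3 on the chromosome were compared, taking the nearest 2 measured genes on each side by RefSeq order, a set chosen after the values were seen. Wars, a tRNA synthetase gene, had 3384 and 3539 normalised reads in the KO and 1849 and 2483 in WT, and Wdr25 had 115 and 144 in the KO and 144 and 226 in WT. On the other side Ppp2r5c, a phosphatase subunit gene, had 8511 and 8813 in the KO and 6307 and 5738 in WT. Dync1h1, the dynein heavy chain gene, had 1917 and 1802 in the KO and 2026 and 2616 in WT. The log2 fold changes of these 4 were 0.69, -0.48, 0.53 and -0.31, so the measured neighbours went both ways. These 4 are not among the listed imprinted genes, and the imprinted neighbours Dlk1, Rtl1, Rian and Mirg were not analysed. Over the 24 such neighbours of the 6 genes, 12 were above 0 and 12 below, from -0.94 to 0.69.

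Imprint maintenance and insulator factors were measured in 14 of 15 cases, and 0 passed in either direction (limma, smallest Benjamini-Hochberg adjusted p = 0.548). In 5 of the 14 (35.7%) the groups did not overlap, against 44.1% of all genes. All 5 were lower in the KO, so 35.7% of the 14 were lower without overlap, against 19.4% of all genes. They were Ehmt2, Smchd1, Arid4b, Arid4a and Ctcf, with Ctcf at a log2 fold change of only -0.13. The median log2 fold change of the 14 was -0.10, and 0.01 without Sin3B KO replicate 2. Ehmt2, a histone H3K9 methyltransferase, had 568 and 697 normalised reads in the KO and 882 and 1220 in WT. Smchd1, a chromatin protein that acts at imprinted clusters and the inactive X, had 574 and 608 in the KO and 813 and 961 in WT. Their log2 fold changes were -0.72 (SE 0.25) and -0.58 (SE 0.23). Zfp57, which guards imprints by binding methylated DNA, had 854 and 1190 in the KO and 501 and 1024 in WT, and its corepressor Trim28 had 1357 and 1676 in the KO and 1248 and 3593 in WT. The insulator protein gene Ctcf was at 2155 and 2084 in the KO and 2267 and 2374 in WT.

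Of 17 genes other than Igf2r in the mannose 6-phosphate and IGF receptor list, 0 passed in either direction (limma, smallest Benjamini-Hochberg adjusted p = 0.548), 7 had both KO values above both WT values and 5 had them below, which makes 70.6% without overlap against 44.1% of all genes. M6pr, the other mannose 6-phosphate receptor, had 5393 and 4955 normalised reads in the KO and 2260 and 3349 in WT (log2 fold change 0.91, SE 0.23). Of the retromer, which returns such receptors from endosomes, Vps35 was at 5561 and 5024 in the KO and 3931 and 2743 in WT and Vps26a at 2986 and 2762 in the KO and 2157 and 1584 in WT. Insr, the insulin receptor gene, had 402 and 414 in the KO and 847 and 636 in WT (log2 fold change -0.85, SE 0.26), and Igf1r had 1860 and 2074 in the KO and 3132 and 2327 in WT (-0.46, SE 0.21).

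For the PI3K, AKT and mTOR pathway, which the Meg3 cluster is linked to, 22 of 25 genes had values, with 10 above 0 and 12 below and a median log2 fold change of -0.01. In this list 0 passed in either direction (limma, smallest Benjamini-Hochberg adjusted p = 0.548). The groups did not overlap in 7 of the 22 (31.8%), against 44.1% of all genes. Mtor had 658 and 605 normalised reads in the KO and 673 and 599 in WT. Its groups overlap. The named genes with groups that did not overlap were Eif4ebp2, a translation repressor gene, at -0.56, Rptor, the mTORC1 scaffold gene, at -0.52, and the mTOR partner Mlst8 at 0.54.

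In the pathway of Gnas, 18 other genes had values, with 8 above 0, 10 below and a median log2 fold change of -0.18. The threshold was passed by 0 of the 18 (limma, smallest Benjamini-Hochberg adjusted p = 0.548). At an unadjusted limma p under 0.05 there was 1 of the 18, against 8.91% of all genes. Both KO values were below both WT values in 8 and above in 2, which makes 55.6% without overlap against 44.1% of all genes. Crebbp, a CREB coactivator, had 1136 and 1356 normalised reads in the KO and 1856 and 1696 in WT (log2 fold change -0.52, SE 0.21), and Pde7a, a cyclic AMP phosphodiesterase gene, had 184 and 224 in the KO and 258 and 386 in WT. Creb1, whose product binds the cyclic AMP response element, had 1279 and 1223 in the KO and 1722 and 1327 in WT (-0.27, SE 0.22). Any link between Creb1 and the Meg3 values was not tested.

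Around Impact, 15 other genes of the amino acid response had values, with a median log2 fold change of 0.05. Eif2ak4, which encodes GCN2, had 383 and 230 normalised reads in the KO and 417 and 345 in WT, and Atf4 had 2516 and 2168 in the KO and 2211 and 2338 in WT. Nupr1, a stress response gene, was at 1862 and 3458 in the KO and 1027 and 1823 in WT (log2 fold change 0.89, SE 0.35). Of the sarcoglycan and dystrophin complex 4 genes beside Sgce had values, with Utrn, the utrophin gene, at 1928 and 2034 in the KO and 3153 and 2209 in WT. Dag1, the dystroglycan gene, had 260 and 713 in the KO and 628 and 930 in WT, which overlap.

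Of the necdin partners and MAGE genes, 12 besides Ndn had values, with 5 above 0 and 7 below. Bmi1, a polycomb gene needed for stem cell self-renewal, had 173 and 286 normalised reads in the KO and 393 and 491 in WT (log2 fold change -0.98, SE 0.35; limma, Benjamini-Hochberg adjusted p = 0.548). Sirt1, a deacetylase, had 163 and 247 in the KO and 324 and 319 in WT, and Nsmce4a, a subunit gene of the SMC5/6 complex, had 192 and 187 in the KO and 199 and 410 in WT. Proposed partners and targets of Meg3 had 13 measured members with a median log2 fold change of 0.03, of which Trp53, the p53 gene, was at 6207 and 6038 in the KO and 4596 and 6239 in WT, and Rbbp4, a subunit of chromatin complexes that include Sin3 and PRC2, at 6136 and 5002 in the KO and 5183 and 3930 in WT. In the amino acid, sarcoglycan, necdin and Meg3 partner lists 0 genes passed (limma, Benjamini-Hochberg), the smallest adjusted p being 0.548, 0.562, 0.548 and 0.608. Leaving out Impact, Sgce and Ndn, groups did not overlap in 20%, 25%, 50% and 30.8% of these lists, against 44.1% of all genes.

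**Figure D4:**
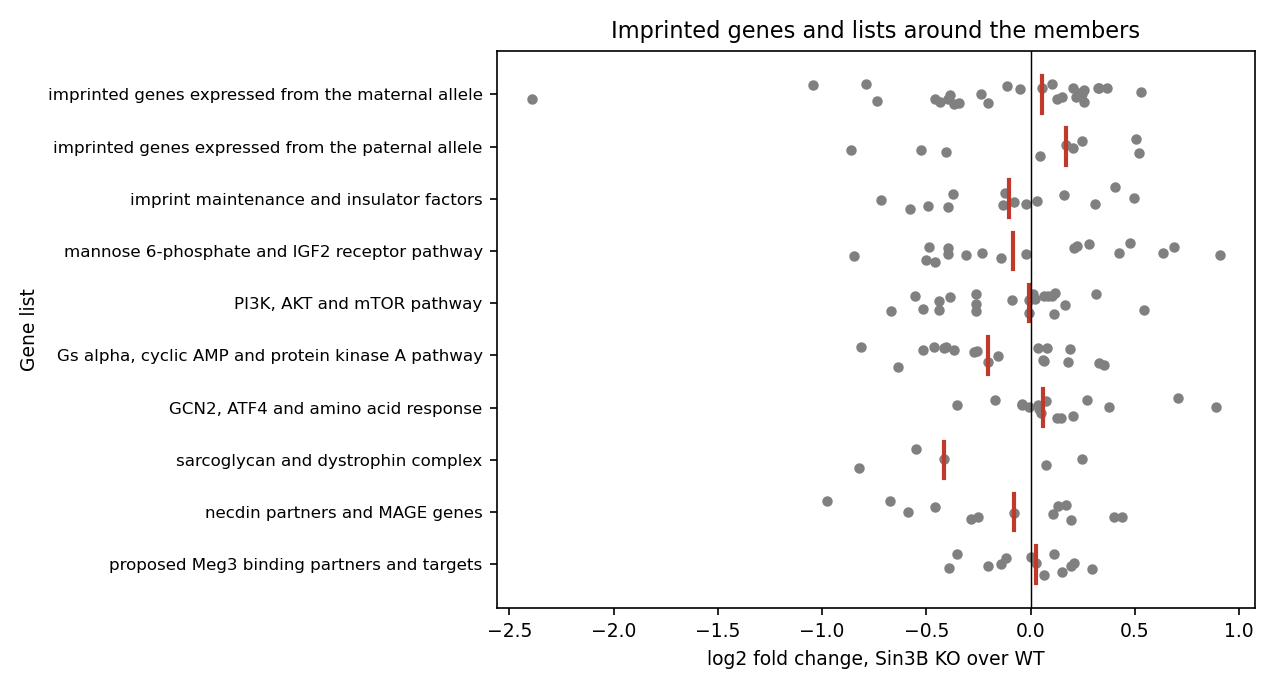
The log2 fold change of Sin3B KO over WT for each gene with values (grey points, spread vertically for sight only) in the imprinted lists and in the lists around the 6 genes, with the median of each list in red. Meg3 is the point at -2.39. The medians lie between -0.41 for the sarcoglycan and dystrophin complex and 0.17 for paternally expressed genes. These become 0.03 without Sin3B KO replicate 2 and -0.0059 without WT replicate 2. Without Sgce, Ndn and Impact, the other 6 paternally expressed genes had a median of -0.18, with 3 above 0 and 3 below.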

How the data were processed

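RNA sequencing had been done on polyA RNA from sorted cells, with SMARTer libraries for low input, per the labels' protocols. Bowtie, DESeq and mm9 are named in the submitters' processing notes; how reads were counted, against which annotation and on which strand is not given in the sources used here. For each library the authors deposited a signal, which is the read count over a size factor. All values came out as multiples of a step that differs by library (tolerance 0.01 step), and if each step is a read, libraries held 9950979 to 13700630 reads in listed genes. The authors' comparison holds, per the file headers, a log2 fold change, its standard error, a test score and p-values. A further 552 genes without library values were left out.

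Genes were tested with limma 3.58.1 in R 4.3.3 on log2(value + 1) with a trended prior, no filter and Benjamini-Hochberg adjustment over 9244 genes. The test had 2 residual degrees of freedom, to which the prior added 6.62. For a typical gene the 95% interval reached 0.60 (log2, median) to either side. The script was tested on simulated data. Exon lengths and gene types came from GENCODE M21 (GRCm38) through Ensembl identifiers, for 9000 genes.

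The members and lists were chosen with earlier results of these data known. Named genes were the 6 members, the other imprinted genes with values, Sin3b and, from each list, up to 4 genes whose groups did not overlap with a log2 fold change of at least 0.5 either way, or else its 2 most abundant. Other genes were named after their values were seen: Zfp57, Trim28, Ctcf, Igf1r, Mtor, Creb1, Eif2ak4, Atf4, Cxcl12, Lpl, Pdgfrb, Pecam1, Emcn, Bgn, Ppbp, Tubb1, Csf3r, Xist and the neighbours of Meg3. Arid4a and Arid4b were also named after their values were seen. Alternatives were other scalings, pseudocounts of 0.1 and 5, a mean of at least 500, a block for replicate number, and leaving out each library in turn; the noncoding set without processed transcripts was added after seeing the data. A pairing is not stated in the labels.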

Additional observations from a re-analysis of the deposited data

How the results depend on the processing

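The count of genes past the threshold was 0 under 3 other scalings, pseudocounts of 0.1 and 5 and a mean of at least 500, and 0 to 1 with a library left out. With the replicate number as a block (replicate block) 27 genes passed. Same-numbered libraries deviated together (r = 0.465 over genes), but 2 pairs do not show a pairing and the labels give none. The Meg3 log2 fold change was below 0 in each of its 10 alternatives, from -3.32 without WT replicate 2 to -1.47 without WT replicate 1, and a mean of at least 500 left it out. The median log2 fold change of all imprinted genes was 0.08, but -0.0079 scaled to the total of listed genes, -0.0365 with upper quartile scaling, 0.187 with a mean of at least 500 and -0.0084 to 0.0507 with a library left out. The median of all genes moved alongside, to -0.05 with total and -0.08 with upper quartile scaling, against 0.03. Count tests (edgeR, DESeq2), though planned, were not run: the deposited values are normalised, and with few low values listed, whole reads were not established as the unit. Genes with a mean below 120.2 were not analysed here.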

Other observations

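Values of 4 abundant long noncoding RNAs and of a ribosomal RNA precursor, picked after they were seen, are given for comparison with Meg3. Malat1, a nuclear RNA, had 35081 and 61565 normalised reads in the Sin3B KO libraries and 71476 and 62198 in the WT libraries. Neat1, the scaffold of paraspeckles, had 3305 and 4001 in the KO and 4312 and 3172 in WT, which overlap. Tug1 was higher in both KO libraries, at 10602 and 11178, against 8991 and 5740 in WT (log2 fold change 0.60, SE 0.24). Gas5, a host of small nucleolar RNAs, had 8855 and 10163 in the KO and 9849 and 9639 in WT. The ribosomal RNA precursor Rn45s had 76171 and 55402 in the KO and 139405 and 99759 in WT.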
